A study of Mus musculus with 9 samples.

Results

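The comparison described here set mouse cytotoxic T lymphocytes treated with either of 2 mTOR inhibitors against cells given only the solvent. For each of 3 spleens the log2 signals of its rapamycin array and its KU-0063794 array were averaged, and the DMSO array of the same spleen was subtracted. The comparison therefore drew on 6 treated and 3 control arrays, all 9 arrays of the study, and asked for the part of the response that both inhibitors share. Where several probe sets measured a gene, the brightest on average stood for it, and 13278 of 18193 genes entered the test.

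The cells came from mice with a transgenic receptor, P14, which lets CD8 T cells recognise the viral peptide gp33-41, and the labels otherwise give the genotype as wild type. Spleens were disaggregated, and the cells were activated for 48 h with the peptide, IL-2 and IL-12, then washed and cultured for 96 h more, which brought them to day 6. During the last 48 h the cultures of the DMSO group received solvent, those of the rapamycin group 20 nM rapamycin, and those of the KU-0063794 group 1 uM KU-0063794, with 3 cultures in each group. The labels give 1 spleen per biological replicate, and same-numbered cultures of the 3 groups were taken to share a spleen, which the labels do not state outright. The replicates were thus separate animals, and all results are for cells cultured outside the animal. Age and sex were not analysed here.

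mTOR is a protein kinase that works in a pair of complexes. Complex 1 responds to amino acids, growth factors and cytokines and promotes protein, lipid and nucleotide synthesis, in part through the transcription factors ATF4, HIF1 and SREBP. Complex 2 acts on kinases such as AKT and SGK1. Rapamycin bound to FKBP12 inhibits mainly complex 1, whereas KU-0063794 blocks the kinase site of mTOR in both complexes. In cytotoxic T lymphocytes mTOR activity is known for its part in glycolysis, in the production of cytolytic effector molecules and in the choice of homing receptors.

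Signals above 1.40 log2, the 95th percentile of 30 genes restricted to other tissues, were counted as above background, and each array had 29.5% to 30.1% of its probe sets there. The labelled cell type was checked on its markers: 11 of 11 measured CD8 T cell markers were above background in DMSO cultures, with a mean level of 6.84 to 6.92 log2 there and no lower than 6.89 with an inhibitor. Of the 11, Cd5 at 0.49 and Cd2 at 0.38 were called higher and Lat at -0.32 lower. B cell markers had a mean level of 1.21 to 1.52 in DMSO cultures and no lower than 1.10 and no higher than 1.52 in treated ones, with 2 of 10 above background and 0 called. Myeloid markers lay at 0.53 to 0.60 and 0.47 to 0.65, with 2 of 14 above background and 1 called, Cd68 at -0.42, which was below background throughout. NK cell markers lay at 2.18 to 2.98 and 2.22 to 3.19, with 2 of 4 above background, Eomes among them, and 0 called. CD4 and regulatory T cell markers lay at 1.60 to 1.74 and 1.62 to 1.76, with 2 of 6 above background and 1 called, Ctla4 at 0.38. For Ctla4 the difference was 0.17 with rapamycin (adjusted p = 0.398, limma) and 0.59 with KU-0063794 (adjusted p = 0.0472, limma). Mean levels of these NK and CD4 lists were thus above 1.40, and whether such cells were present was not tested. As a gauge of RNA quality, actin probes at the 3' end exceeded those at the 5' end by 0.49 to 0.65 log2 with DMSO, by 0.62 to 0.72 with rapamycin and by 0.65 to 0.70 with KU-0063794. Each inhibitor array had a larger excess than the DMSO array of its spleen. The Gapdh control went the other way, at -0.21 to 0.04 with DMSO, -0.25 to -0.03 with rapamycin and -0.22 to -0.03 with KU-0063794, lower on each inhibitor array than on the DMSO array of its spleen. The part of either in the results was not tested.

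Genes of the cytolytic granule, amino acid supply, sterol synthesis and glycolysis were among those lower with the inhibitors, and genes of DNA replication and mitosis among those higher; the counts for each follow below. In the paired limma fit, 1515 of 13278 genes passed a Benjamini-Hochberg adjusted p of 0.05. Of these, 777 were higher with an inhibitor (5.85% of the genes tested) and 738 lower (5.56%). Counts of list members below are given beside these shares. The lists were chosen with earlier results of these data known, so a count above its share describes the list and is no test of it. The median called difference was 0.46 log2 among the higher genes and -0.48 among the lower. At a change of at least 1 on the log2 scale, which is 2-fold, the balance was uneven, with 14 genes higher and 74 lower. All 6 differences within a spleen had the same sign for 1469 of the called genes, against 26.2% of all genes tested, and for 1000 the treated arrays did not overlap the DMSO arrays. Over all genes tested, 12.9% did not overlap.

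The number called rested on having 3 spleens. It was 209 without spleen 1, 779 without spleen 2 and 190 without spleen 3. A fit of the 9 arrays as separate values gave 928 without the spleen block and 2059 with it. Dropping the pairing by spleen, as used below, means the former fit. The largest of the 3 spleen differences lay in spleen 1 for 891 called genes, in spleen 2 for 277 and in spleen 3 for 347.

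**Figure D1:**
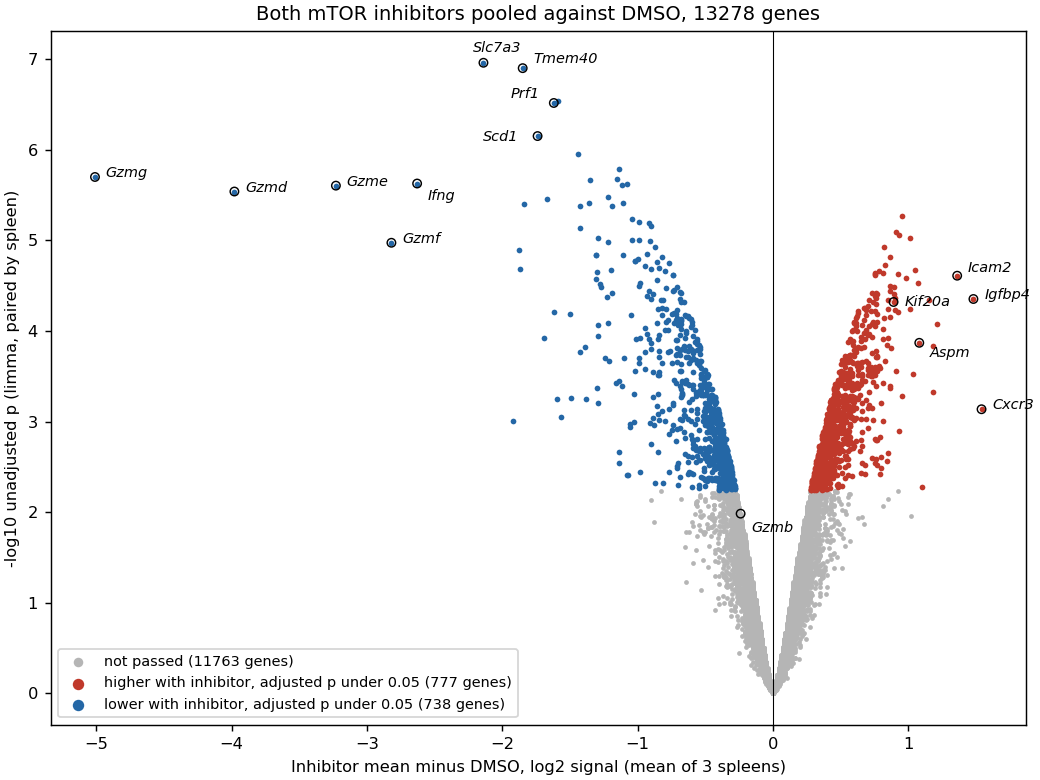
Each point is 1 of 13278 genes, with the pooled inhibitor minus DMSO difference in log2 signal on the x axis and -log10 of the unadjusted limma p on the y axis. The 4 genes farthest to the left are granzymes G, D, E and F, the called genes on the right end at 1.54 (Cxcr3), and Gzmb lies among the genes that did not pass.

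Cytolytic granules deliver perforin, which opens the membrane of the target cell, and granzymes, proteases that kill it. Of 10 tested members of the granzyme and perforin list, 6 fell and 0 rose, where 5.56% of all genes tested fell and 5.85% rose, with a median difference of -1.06 log2 against 0.005 over all genes tested. The median depends on probe sets and filters, at -0.37 with the median-ranked probe set, -0.63 with the mean of probe sets, -0.49 with no filter and -1.62 with a filter at background, and 4 to 7 members fell in each. The 4 lowest genes of the whole table were members. In these bulk cultures, fewer cells expressing a gene and less RNA per cell cannot be told apart.

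Gzmg, encoding granzyme G, was at 7.40, 4.83 and 5.38 log2 on the DMSO arrays of spleens 1 to 3. On the 6 treated arrays it ranged from 0.40 to 1.91 with a median of 0.73, and only the rapamycin array of spleen 1 was above background. The groups did not overlap, and the pooled difference in deposited signal was -5.01 (SE 0.31, adjusted p = 0.00235, limma). With signals below background raised to it, an alternative added after the data were seen, the difference was -4.38. Gzmd was at 8.07, 5.76 and 6.16 in DMSO and between 1.53 and 4.36 in treated cultures (median 2.66). It fell by 3.98 (SE 0.26, adjusted p = 0.00249, limma), 15.8-fold, with all treated arrays still above background. Gzme fell by 3.23 (SE 0.20) and Gzmf by 2.82 (SE 0.23), again with no overlap between groups. For Gzme 4 of the 6 treated arrays were above background. These neighbouring granzyme genes are close in sequence, and whether their probe sets cross-hybridise was not tested.

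Prf1, encoding perforin, was at 6.79, 4.88 and 4.81 log2 in DMSO and between 3.00 and 5.47 in treated cultures. The groups overlapped because spleen 1 was higher than the others with and without inhibitor, but within spleens the differences were -1.67, -1.67 and -1.51. The pooled difference was -1.62 (SE 0.07, adjusted p = 0.00101, limma), and the call is lost when the pairing is dropped. A second Prf1 probe set, below background, gave 0.09 (adjusted p = 0.555, limma). Gzmb, the major granzyme of mouse CD8 T cells, stayed among the brightest signals on the arrays. It was at 12.38, 12.27 and 12.34 in DMSO and between 12.00 and 12.16 in treated cultures, a difference of -0.24 (SE 0.07) that did not pass (adjusted p = 0.0723, limma). All 6 of its treated arrays lay below all 3 DMSO arrays, and the brightest probe set of each array was at 12.19 to 12.38.

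**Figure D2:**
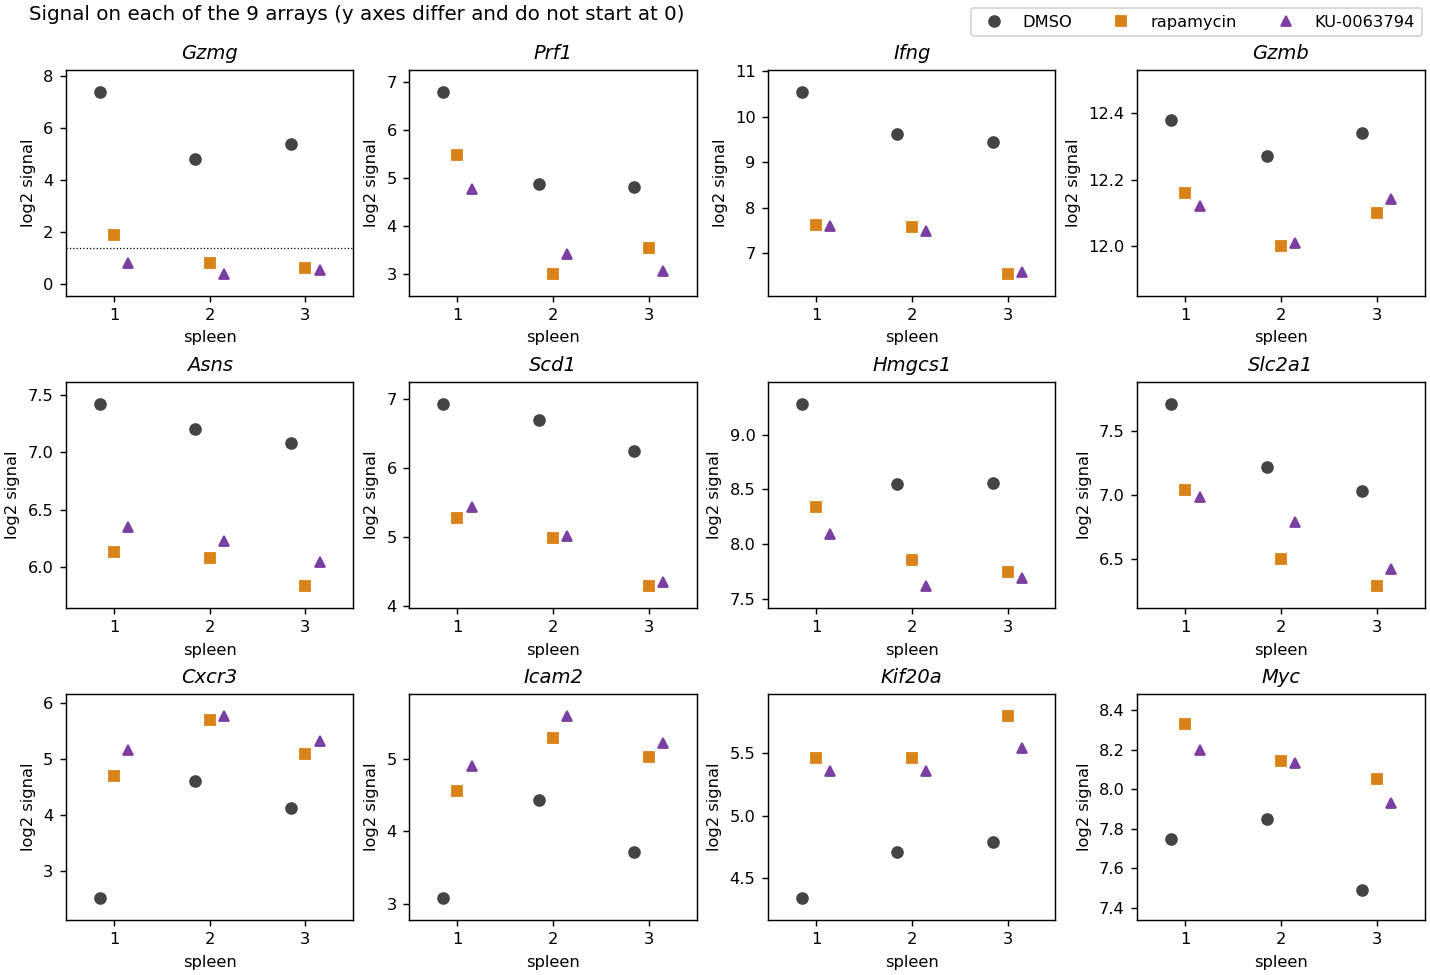
Log2 signal of 12 genes on each of the 9 arrays, by spleen, with DMSO as circles, rapamycin as squares and KU-0063794 as triangles; the dotted line in the Gzmg panel is the background level of 1.40. Within every spleen both inhibitor arrays lie on the same side of the DMSO array, and for Prf1 and Slc2a1 the spleens differ enough that the groups overlap.

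Genes of granule release and self-protection moved both ways, with 2 of 17 tested members higher and 4 lower. Serpinb9, an inhibitor of granzyme B that protects the killer cell, was at 6.59, 4.47 and 5.66 log2 in DMSO and between 3.32 and 5.61 in treated cultures. It fell by 1.19 (SE 0.08, adjusted p = 0.00249, limma), and its relative Serpinb6b by 1.23 (SE 0.12). Stx7, a syntaxin of late endosomes, fell by 0.90 (SE 0.09). The DMSO and treated ranges of Serpinb9 overlapped, and without the pairing 0 of the 4 lower members passed. Ctsw, a cathepsin of cytotoxic cells, rose by 0.35 and Lamp1, a membrane protein of lysosomes and granules, by 0.42; both calls are lost with any spleen left out.

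Interferon gamma led the cytokines, of which 6 of 13 tested fell and 0 rose. Ifng was at 10.54, 9.62 and 9.44 log2 in DMSO and between 6.55 and 7.63 in treated cultures (median 7.53). Every treated array was below every DMSO array, with a difference of -2.63 (SE 0.17, adjusted p = 0.00235, limma), 6.17-fold. Lta, encoding lymphotoxin alpha, fell by 0.90 (SE 0.07) with differences of -0.91, -0.88 and -0.92 in the 3 spleens. Ccl4, an inflammatory chemokine, was at 5.10, 5.28 and 4.33 in DMSO and between 3.33 and 4.01 in treated cultures. It fell by 1.29 (SE 0.21), and its call is lost without spleen 1. Without spleens 1, 2 and 3 the number of cytokines called was 2, 3 and 3, and without the pairing 3. Tnf, Il10 and Csf2 were the other called members, at -0.42 to -0.51; they lie outside the rule for named genes and were named after their values were seen.

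Among cytokine receptors and their signalling genes, 8 of 29 tested fell and 2 rose. Il1r2, the decoy receptor for interleukin 1, was at 3.29, 2.60 and 3.02 log2 in DMSO and between 1.11 and 1.76 in treated cultures. The fall was 2.83-fold (adjusted p = 0.00651, limma), with 4 treated arrays above background. The 2 subunits of the TGF-beta receptor parted, with Tgfbr2 lower by 0.71 (SE 0.09) and Tgfbr1 higher by 0.42 (SE 0.07). Stat3, a signal transducer of several interleukin receptors, fell by 0.56 (SE 0.07), although its median-ranked probe set, below background, gave 0.02. Socs2, a feedback inhibitor of cytokine signalling, rose by 0.35. Il7r, the interleukin 7 receptor, did not pass at -0.12 (SE 0.10, adjusted p = 0.498, limma). Of these calls Tgfbr1, Tgfbr2, Stat3 and Socs2 are lost without spleen 1 and without spleen 3, and Tgfbr1 and Socs2 also without spleen 2.

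Homing and adhesion genes held the highest rise of all. Cxcr3, the chemokine receptor for ligands induced by interferon gamma, was at 2.52, 4.61 and 4.12 log2 in DMSO and between 4.69 and 5.77 in treated cultures. Every treated array was above every DMSO array, and the difference was 1.54 (SE 0.25, adjusted p = 0.0168, limma), 2.9-fold. It was 2.41 in spleen 1, where DMSO cells had the least Cxcr3, against 1.12 and 1.09, and the call is lost without spleen 3 and without the pairing. Icam2, a ligand of the integrin LFA-1 that is not in the homing list, rose by 1.36 (SE 0.13) from 3.08, 4.43 and 3.71 in DMSO to between 4.56 and 5.59. Of the 22 tested members of the homing list, 4 rose and 5 fell. Ccr7, the receptor for entry into lymph nodes, rose by 0.66 (SE 0.13, adjusted p = 0.0265, limma), and Itgae, the alpha E integrin, by 0.73 (SE 0.12). Gpr183, an oxysterol receptor that guides cells within lymphoid tissue, fell by 0.98 (SE 0.09). Itgav, the alpha V integrin, fell by 0.78, while its median-ranked probe set, below background, gave 0.05. Cxcr6, a chemokine receptor of effector cells, fell by 0.36. Klf2, a factor that controls several homing genes, was near background and did not pass, at 0.12 (SE 0.09, adjusted p = 0.459, limma). The calls of Ccr7, Itgae, Itgav and Cxcr6 are lost without spleen 1 and without spleen 3, and that of Cxcr6 also without spleen 2.

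Checkpoint and costimulatory receptors were split, with 5 of 22 tested higher and 7 lower. Cd27, a costimulatory receptor that effector cells tend to lose, was at 2.01, 1.81 and 1.84 log2 in DMSO and between 2.54 and 3.33 in treated cultures, a rise of 0.92 (SE 0.10, adjusted p = 0.00642, limma). Pdcd1, encoding PD-1, fell by 0.71 (SE 0.09) from 3.44, 3.29 and 3.17 to between 2.06 and 2.85. Tnfrsf9, encoding 4-1BB, fell by 0.65 and Cd69, an early activation marker, by 0.80. Klrk1, encoding the activating receptor NKG2D, rose by 0.39 and Cd274, encoding PD-L1, by 0.41. For Cd274 the difference was 0.57 with rapamycin (adjusted p = 0.0332, limma) and 0.24 with KU-0063794 (adjusted p = 0.195, limma). The calls of Klrk1 and Cd274 are lost with any spleen left out, those of Cd69 without spleen 1 or 3, Pdcd1 without spleen 1 and Tnfrsf9 without spleen 3.

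Of 30 transcription factors of effector and memory cells, 7 fell and 0 rose. Id2, which sustains effector cells by blocking E proteins, was at 9.42, 8.35 and 8.69 log2 in DMSO and between 7.46 and 8.48 in treated cultures. It fell by 0.99 (SE 0.08, adjusted p = 0.00382, limma), with -1.08, -0.85 and -1.04 in the 3 spleens. Hopx, a homeodomain protein of effector cells, fell by 0.73 (SE 0.07) and Bhlhe40, a repressor linked to cytokine output, by 0.60 (SE 0.09). Without the pairing by spleen 0 of the 30 passed, and Bhlhe40 is lost without spleen 1 or spleen 3. The factors most often used to mark effector and memory states did not pass: Tbx21, encoding T-bet, differed by 0.06 (SE 0.09), Eomes by 0.09 (SE 0.08) and Prdm1, encoding BLIMP-1, by 0.11 (SE 0.08).

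Of 14 tested genes of ATF4 and the stress response 8 fell and 0 rose, with a median of -0.55 log2. ATF4 is a transcription factor that turns on amino acid synthesis and uptake. Atf4 itself was at 8.26, 8.07 and 7.94 in DMSO and between 7.29 and 7.66 in treated cultures, without overlap, a fall of 0.62 (SE 0.07, adjusted p = 0.00665, limma). Trib3, a pseudokinase induced by ATF4, was at 5.97, 5.53 and 5.83 in DMSO and between 4.45 and 4.68 in treated cultures, a fall of 1.20 (SE 0.11). Ddit4, encoding the mTORC1 inhibitor REDD1, fell by 1.05 (SE 0.11) and Atf5 by 0.95 (SE 0.08). The list had 4, 7 and 2 called members without spleens 1, 2 and 3, and in each case 0 higher; the call of Atf4 is lost without spleen 1 or 3 and that of Ddit4 without spleen 3.

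The enzymes and carriers that supply amino acids included further genes that fell. Asns, which makes asparagine, was at 7.42, 7.20 and 7.08 log2 in DMSO and between 5.84 and 6.35 in treated cultures, a fall of 1.12 (SE 0.07, adjusted p = 0.00235, limma). Psph, the last enzyme of serine synthesis, fell by 1.11 (SE 0.08), and Gpt2, a mitochondrial alanine aminotransferase, by 1.36 (SE 0.09). For Gpt2 only 4 treated arrays were above background. In all, 8 of 20 enzymes of amino acid synthesis fell (4, 6 and 3 without spleens 1, 2 and 3), and Glul, glutamine synthetase, was the only one called higher, at 0.56 (SE 0.09). Of 14 transporters 6 fell and 0 rose, with a median of -0.31 that was -0.11 with the mean of probe sets and 0.00 with the median-ranked probe set. Slc7a3, a carrier of cationic amino acids, was at 4.72, 3.87 and 3.67 in DMSO and between 1.02 and 2.62 in treated cultures, and its fall of 2.14 (SE 0.08, adjusted p = 0.000833, limma) had the lowest adjusted p of the table, shared with Tmem40. Slc7a5, which carries leucine, fell by 0.53 (SE 0.07) and Slc1a5, which carries glutamine, by 0.51 (SE 0.07). Without spleen 1 or spleen 3 the calls of Glul, Slc7a5 and Slc1a5 are lost, and 1 transporter passed.

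The tRNA synthetases load amino acids onto tRNA in the cytosol or in mitochondria. Of 19 cytosolic enzymes 7 fell and 0 rose, whereas 0 of 15 mitochondrial enzymes were called, between -0.13 and 0.26 log2. Nars, for asparagine, was at 7.44, 7.14 and 7.31 in DMSO and between 6.51 and 6.75 in treated cultures, a fall of 0.69 (SE 0.07, adjusted p = 0.00572, limma). Sars, for serine, fell by 0.61 (SE 0.07) and Cars, for cysteine, by 0.71 (SE 0.08). Whether the 2 sets differ was not tested. Without spleens 1, 2 and 3 the number of cytosolic enzymes called was 2, 3 and 1, with Sars lost without spleen 1 or 3 and Nars without spleen 3.

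Promoters of RefSeq genes, 250 bases before to 50 after the start on GRCm38.p6, were searched on both strands for the composite element TGATGNAA that ATF4 binds with its partners. A gene was counted once, as holding the element if any of its promoters did. The element was found for 4.51% of 27025 genes with a promoter and for 2.82% of the 10619 tested genes with a promoter. Among the ATF4 and stress genes, 3 of 8 that fell held it and 1 of 6 that did not pass. Among the cytosolic synthetases the numbers were 4 of 5 and 1 of 7, among the amino acid synthesis genes 1 of 8 and 1 of 8, among the transporters 1 of 2 and 0 of 7, and among the mitochondrial synthetases, where none fell, 0 of 13. A match describes letters only, and binding was not measured. The windows below show the element in genes that fell; these genes were chosen after their values were seen, the capitals mark the element on either strand, and each sequence is read in the direction of its gene.
Nupr1: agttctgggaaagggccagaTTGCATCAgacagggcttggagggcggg
Chac1: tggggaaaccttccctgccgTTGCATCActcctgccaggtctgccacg
Aars: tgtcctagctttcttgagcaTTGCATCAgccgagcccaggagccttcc
They lie at chr7:126625553-126625600 on the minus strand, and at chr2:119351029-119351076 and chr8:111033710-111033757 on the plus strand. Nupr1, a stress-induced nuclear protein, fell by 1.43 log2, and Chac1, which breaks down glutathione, by 0.77. Aars, the synthetase for alanine, fell by 0.43.

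Polyamine genes had a median of -0.07 log2 over 9 tested, and 2 fell, both of them catabolic enzymes. Smox, spermine oxidase, was at 5.10, 4.66 and 5.10 in DMSO and between 2.98 and 3.64 in treated cultures, a fall of 1.67 (SE 0.11, adjusted p = 0.00249, limma). Sat1, which acetylates spermidine and spermine, fell by 0.74 (SE 0.12). The call of Sat1 is lost with any spleen left out. The other 7 did not pass and lay between -0.15 and 0.23.

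Of 17 tested genes of sterol synthesis 13 fell and 0 rose, and all 17 differences were negative, with a median of -0.54 log2. Hmgcs1, which makes the precursor HMG-CoA, was at 9.28, 8.55 and 8.56 in DMSO and between 7.62 and 8.34 in treated cultures, a fall of 0.90 (SE 0.08, adjusted p = 0.00471, limma). Mvd, a decarboxylase of the mevalonate pathway, fell by 0.86 (SE 0.08), and Cyp51, which demethylates lanosterol, by 0.77 (SE 0.07). For Cyp51 the 3 spleens gave -0.78, -0.77 and -0.75, and the treated arrays were below all DMSO arrays. With a spleen left out, 7, 12 and 7 of the 17 still passed without spleens 1, 2 and 3, and 8 fell with the median-ranked probe set.

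Of 12 genes of sterol uptake, efflux and control 2 fell and 1 rose, against 5.56% and 5.85% of all genes tested. Insig1, which holds SREBP in the endoplasmic reticulum and is itself induced by it, fell by 0.56 (SE 0.07). Srebf1 and Srebf2, encoding the SREBP factors, did not pass at -0.06 (SE 0.07) and -0.04 (SE 0.07). Npc2, which exports cholesterol from lysosomes, rose by 0.41 (SE 0.07), and its DMSO and treated ranges overlapped. Its difference was 0.65 with rapamycin (adjusted p = 0.0267, limma) and 0.16 with KU-0063794 (adjusted p = 0.263, limma). Insig1 is lost without spleen 1 or 3 and Npc2 with any spleen left out. The sterol regulatory element TCACNCCAC was found for 1.44% of all genes with a promoter and for 1 of 14 of the sterol synthesis genes that had a promoter in the table. That gene was Hmgcs1, with the element in capitals in this window at chr13:119690194-119690242, plus strand of GRCm38.p6.
Hmgcs1: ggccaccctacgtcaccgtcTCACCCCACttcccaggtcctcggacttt

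Fatty acid genes changed in few places, 5 of 22 lower and 1 higher, but one was among the largest. Scd1, the desaturase that makes oleate, was at 6.93, 6.70 and 6.25 log2 in DMSO and between 4.29 and 5.44 in treated cultures. It fell by 1.74 (SE 0.09, adjusted p = 0.00187, limma), 3.33-fold. Acss2, which makes acetyl-CoA from acetate, was above background on all DMSO arrays and on 0 treated arrays, so that its fall was at least 1.65-fold. Acsl4, which activates polyunsaturated fatty acids, fell by 0.69 (SE 0.08), and Acsl5, another acyl-CoA synthetase, rose by 0.31 (SE 0.07). For fatty acid oxidation 3 of 17 genes fell, among them Slc25a20, the mitochondrial carnitine carrier, by 0.54 (SE 0.07). Acsl4 and Slc25a20 are lost without spleen 1 or 3, Acss2 without spleen 3 and Acsl5 with any spleen left out.

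Genes of glycolysis fell in 11 of 18 cases, rose in 0, and had negative differences in all 18, with a median of -0.40 log2. Slc2a1, encoding the glucose transporter GLUT1, was at 7.71, 7.22 and 7.03 in DMSO and between 6.29 and 7.04 in treated cultures. The groups touched, but within spleens the differences were -0.69, -0.57 and -0.67, and the fall was 0.65 (SE 0.07, adjusted p = 0.00651, limma). Aldoa, a glycolytic aldolase, fell by 0.68 (SE 0.07), and Aldoc, its relative, by 1.31 (SE 0.11). Hk2, hexokinase 2, was at 7.43, 7.35 and 7.29 in DMSO and between 6.41 and 7.23 in treated cultures. It fell by 0.59 (SE 0.12, adjusted p = 0.0256, limma), with only -0.26 in spleen 2. Without spleens 1, 2 and 3 the number called was 3, 8 and 1, with Slc2a1 and Hk2 lost without spleen 1 or 3 and Aldoa without spleen 3.

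The hypoxia response list, targets of HIF1, had 13 of 22 genes lower and 1 higher, with a median of -0.47 log2. Egln3, an oxygen sensor that HIF1 induces, was at 6.46, 6.11 and 5.39 in DMSO and between 4.34 and 5.15 in treated cultures, a fall of 1.11 (SE 0.09, adjusted p = 0.00441, limma). Bnip3, a mitochondrial protein of the BCL2 family, fell by 0.91 (SE 0.07) and Ak4, a mitochondrial adenylate kinase, by 0.92 (SE 0.09). The median-ranked probe set of Ak4, below background, gave 0.07. Kdm3a, a histone demethylase that is also a HIF1 target, went the other way, rising by 0.67 (SE 0.07) from 5.76, 5.67 and 5.70 to between 6.23 and 6.46. The mRNA of Hif1a itself did not pass, at -0.19 (SE 0.08, adjusted p = 0.204, limma). Without spleens 1, 2 and 3 the list had 6, 12 and 5 genes lower, and Kdm3a is lost without spleen 3. The median was -0.24 with 9 lower for the mean of probe sets and -0.31 with 5 lower for the median-ranked probe set, and 7 fell without the pairing.

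**Figure D3:**
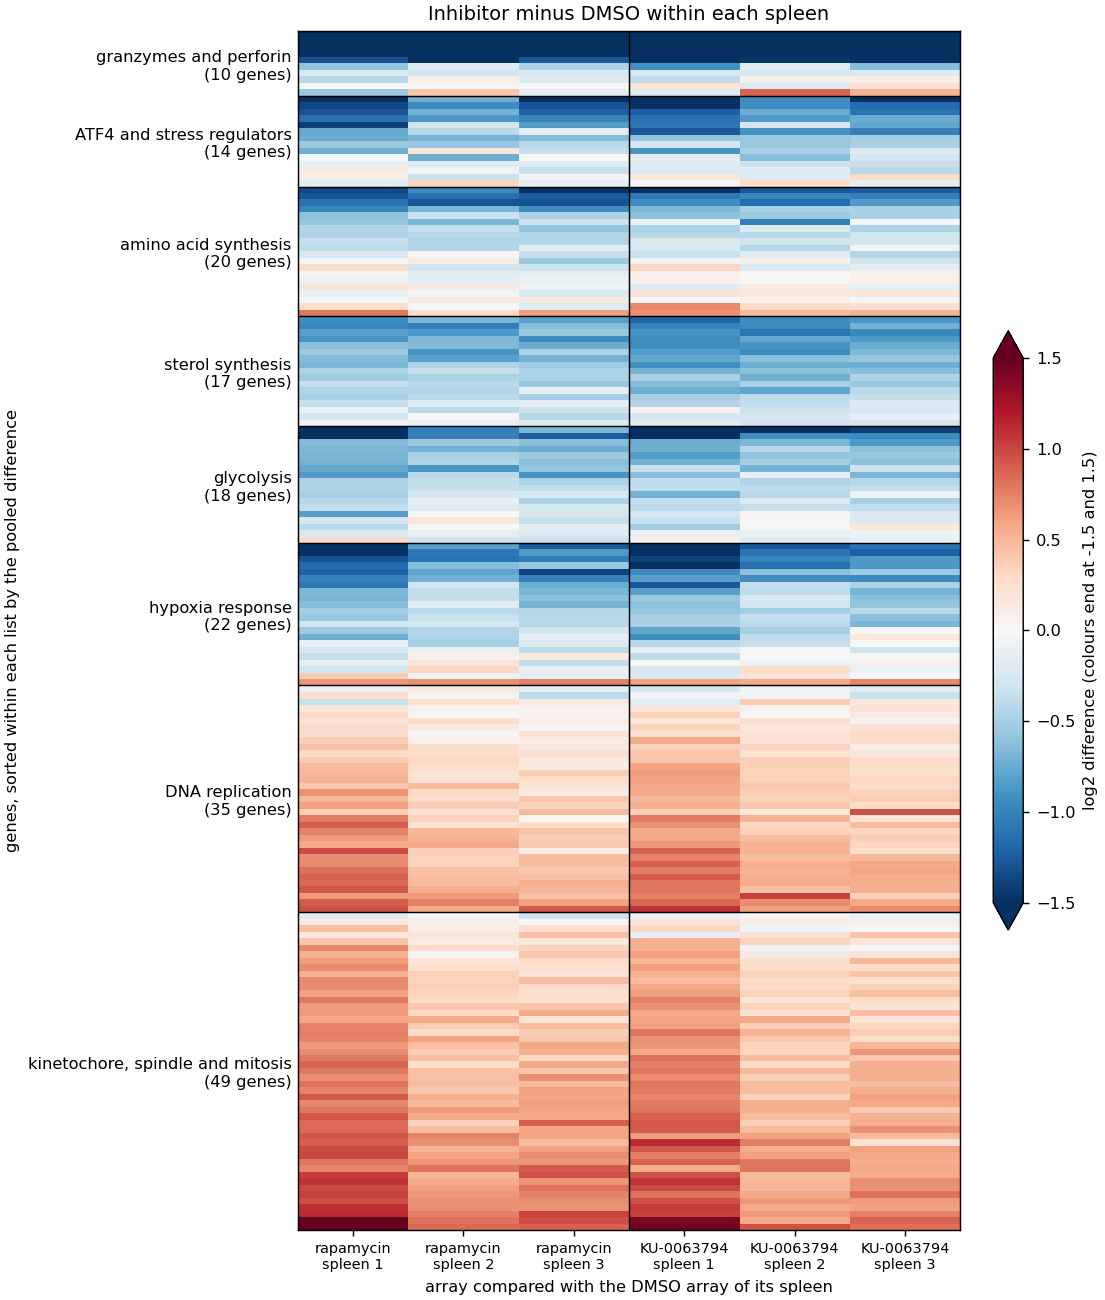
Colour shows the log2 difference between each inhibitor array and the DMSO array of its spleen for every tested member of 8 lists, 3 rapamycin columns on the left and 3 KU-0063794 columns on the right; colours end at -1.5 and 1.5. Blue prevails in the upper 6 lists and red in DNA replication and mitosis in all 6 columns, and the red is deepest in spleen 1.

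Of 49 tested genes of the kinetochore, spindle and mitosis 40 rose and 0 fell, against 5.85% of all genes tested, with a median of 0.58 log2; 2 of the 51 with a probe set were too dim to test. All 6 differences were positive for 45 of the 49, and for 39 of the 40 that rose the groups did not overlap. The size of each rise was moderate, between 0.39 and 1.08. Without spleens 1, 2 and 3 the number called was 9, 28 and 6, with medians of 0.47, 0.63 and 0.61, and it was 26 with the median-ranked probe set. Over all genes tested, 26.2% had 6 differences of one sign and 12.9% did not overlap. Of all 1515 called genes 1000 did not overlap, and the 40 were picked by the same test.

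Aspm, a protein of the spindle poles, was at 3.19, 3.69 and 3.61 log2 in DMSO and between 4.44 and 4.73 in treated cultures, a rise of 1.08 (SE 0.13, adjusted p = 0.00822, limma). Kif20a, a kinesin of cytokinesis, was at 4.34, 4.71 and 4.79 in DMSO and between 5.36 and 5.80 in treated cultures, a rise of 0.89 (SE 0.09, adjusted p = 0.00584, limma). Anln, a scaffold of the contractile ring, rose by 0.72 (SE 0.08), and Cenpk, a kinetochore protein, by 0.73 (SE 0.07). The median-ranked probe set of Cenpk, below background, gave -0.09. Mki67, encoding the proliferation marker Ki-67, rose by 0.51 (SE 0.10, adjusted p = 0.0258, limma), from 7.37, 7.79 and 7.61 to between 7.98 and 8.30. Its call is lost with any spleen left out, and that of Kif20a without spleen 3.

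DNA replication genes rose in 20 of 35 cases and fell in 0, with a median of 0.40 log2. Mcm7, a subunit of the replicative helicase, was at 7.73, 8.12 and 8.07 in DMSO and between 8.53 and 8.68 in treated cultures, a rise of 0.63 (SE 0.09, adjusted p = 0.0112, limma). Pold1 and Pole, the catalytic subunits of DNA polymerases delta and epsilon, rose by 0.81 (SE 0.10) and 0.73 (SE 0.08). Without spleens 1, 2 and 3 the number called was 2, 8 and 2, and with the median-ranked probe set 13; Mcm7 is lost without spleen 1 or 3 and Pold1 without spleen 3.

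Among cyclins, CDKs and E2F factors 15 of 36 rose and 2 fell. E2f7, a repressor of the E2F family, rose by 1.01 (SE 0.11) from 2.77, 2.60 and 3.18 log2 to between 3.69 and 3.99. Cdc25b, a phosphatase that activates CDK1, rose by 0.75 (SE 0.07), and Rbl1, encoding the pocket protein p107, also by 0.75 (SE 0.08). The median-ranked probe set of Rbl1, below background, gave -0.01. The 2 that fell were Cdkn1a, encoding the CDK inhibitor p21, by 0.82 (SE 0.09, adjusted p = 0.0064, limma), and Ccnd2, encoding cyclin D2, by 0.60 (SE 0.07). For Cdkn1a the DMSO arrays were at 7.77, 7.75 and 7.90, all above the 6.71 to 7.22 of the treated arrays. Of 25 genes of the pentose phosphate pathway and nucleotide synthesis 5 rose and 2 fell. Those that rose include Paics and Prps1 of purine synthesis, at 0.41 (SE 0.07) and 0.36 (SE 0.07). Rpe and Rpia of the pentose phosphate pathway each fell by 0.42 (SE 0.07), and with any spleen left out 0 of the 25 passed, while 12 rose with the intensity trend. Of the cyclin list 4, 12 and 3 genes were called higher without spleens 1, 2 and 3, and Ccnd2 is lost without spleen 1 or 3.

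Promoters of the same RefSeq table were searched for a pair of cell cycle motifs. Genes were again counted once each, over all their promoters. The cell cycle homology region TTTGAA, bound by complexes that time mitotic genes, was found for 20.2% of all genes with a promoter and 14.1% of tested ones. It was present in 26 of 36 mitotic genes that rose, in 4 of 7 of those that did not pass, and in 5 of 29 of tested replication genes. The E2F site, TTTCCCGC or TTTGGCGC, was found for 1.8% of all genes with a promoter and 3.22% of tested ones. It was present in 7 of 14 replication genes that rose, 4 of 15 that did not pass, and 2 of 43 tested mitotic genes. The windows show 4 mitotic genes with the homology region and then 4 replication genes with an E2F site, chosen after their values were seen. Capitals mark 1 motif match on either strand, and the Mki67 window holds a further TTTGAA in lower case.
Kif2c: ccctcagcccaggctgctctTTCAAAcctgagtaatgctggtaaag
Ect2: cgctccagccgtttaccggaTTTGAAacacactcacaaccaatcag
Top2a: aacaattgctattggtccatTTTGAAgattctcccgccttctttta
Mki67: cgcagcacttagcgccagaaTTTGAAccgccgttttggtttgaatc
Mcm5: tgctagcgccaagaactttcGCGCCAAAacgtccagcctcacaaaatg
Mcm6: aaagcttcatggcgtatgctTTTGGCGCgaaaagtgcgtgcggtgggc
Mcm7: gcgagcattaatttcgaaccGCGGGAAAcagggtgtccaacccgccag
Cdc6: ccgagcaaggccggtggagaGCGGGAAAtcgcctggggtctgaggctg
On GRCm38.p6 the mitotic windows lie at chr4:117178850-117178895, chr3:27153967-27154012, chr11:99024343-99024388 and chr7:135716470-135716515, all on the minus strand. The replication windows lie at chr8:75109340-75109387 (plus), chr1:128359788-128359835 (minus), chr5:138172021-138172068 (minus) and chr11:98907993-98908040 (plus). The pooled differences were 0.71 log2 for Kif2c, a kinesin that takes down microtubules, 0.53 for Ect2, a factor of cytokinesis, and 0.58 for Top2a, topoisomerase II alpha. Mcm5 and Mcm6, helicase subunits, rose by 0.59 and 0.54, and Cdc6, which loads the helicase, by 0.40.

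Of 18 ribosomal protein and other TOP mRNAs, whose translation depends on mTOR, 1 rose and 0 fell, with a median of 0.08 log2; 17 differences were positive, and 8 genes rose with the intensity trend. The called gene was Rps6, at 0.46 (SE 0.08, adjusted p = 0.0182, limma); it did not pass with any spleen left out or as the mean of its probe sets. Of 28 ribosome biogenesis genes only Myc passed. It was at 7.75, 7.85 and 7.49 in DMSO and between 7.93 and 8.33 in treated cultures, a rise of 0.43 (SE 0.08, adjusted p = 0.0211, limma) with no overlap, and the call is lost without spleen 1 or spleen 3. Of 26 initiation factors 1 rose and 2 fell, against 5.85% and 5.56% of all genes tested. Eif4ebp1, encoding the translation repressor 4E-BP1, fell by 1.04 (SE 0.08) from 7.16, 6.91 and 6.53 to between 5.44 and 6.05, whereas Pdcd4, a repressor of the helicase eIF4A, rose by 0.62 (SE 0.08), a call lost without spleen 1. Of 26 respiratory chain genes 0 passed in the main limma fit, with differences between -0.20 and 0.07, of which 21 were negative. With the intensity trend 5 fell, and in the 9-array fit with the block 2.

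**Figure D4:**
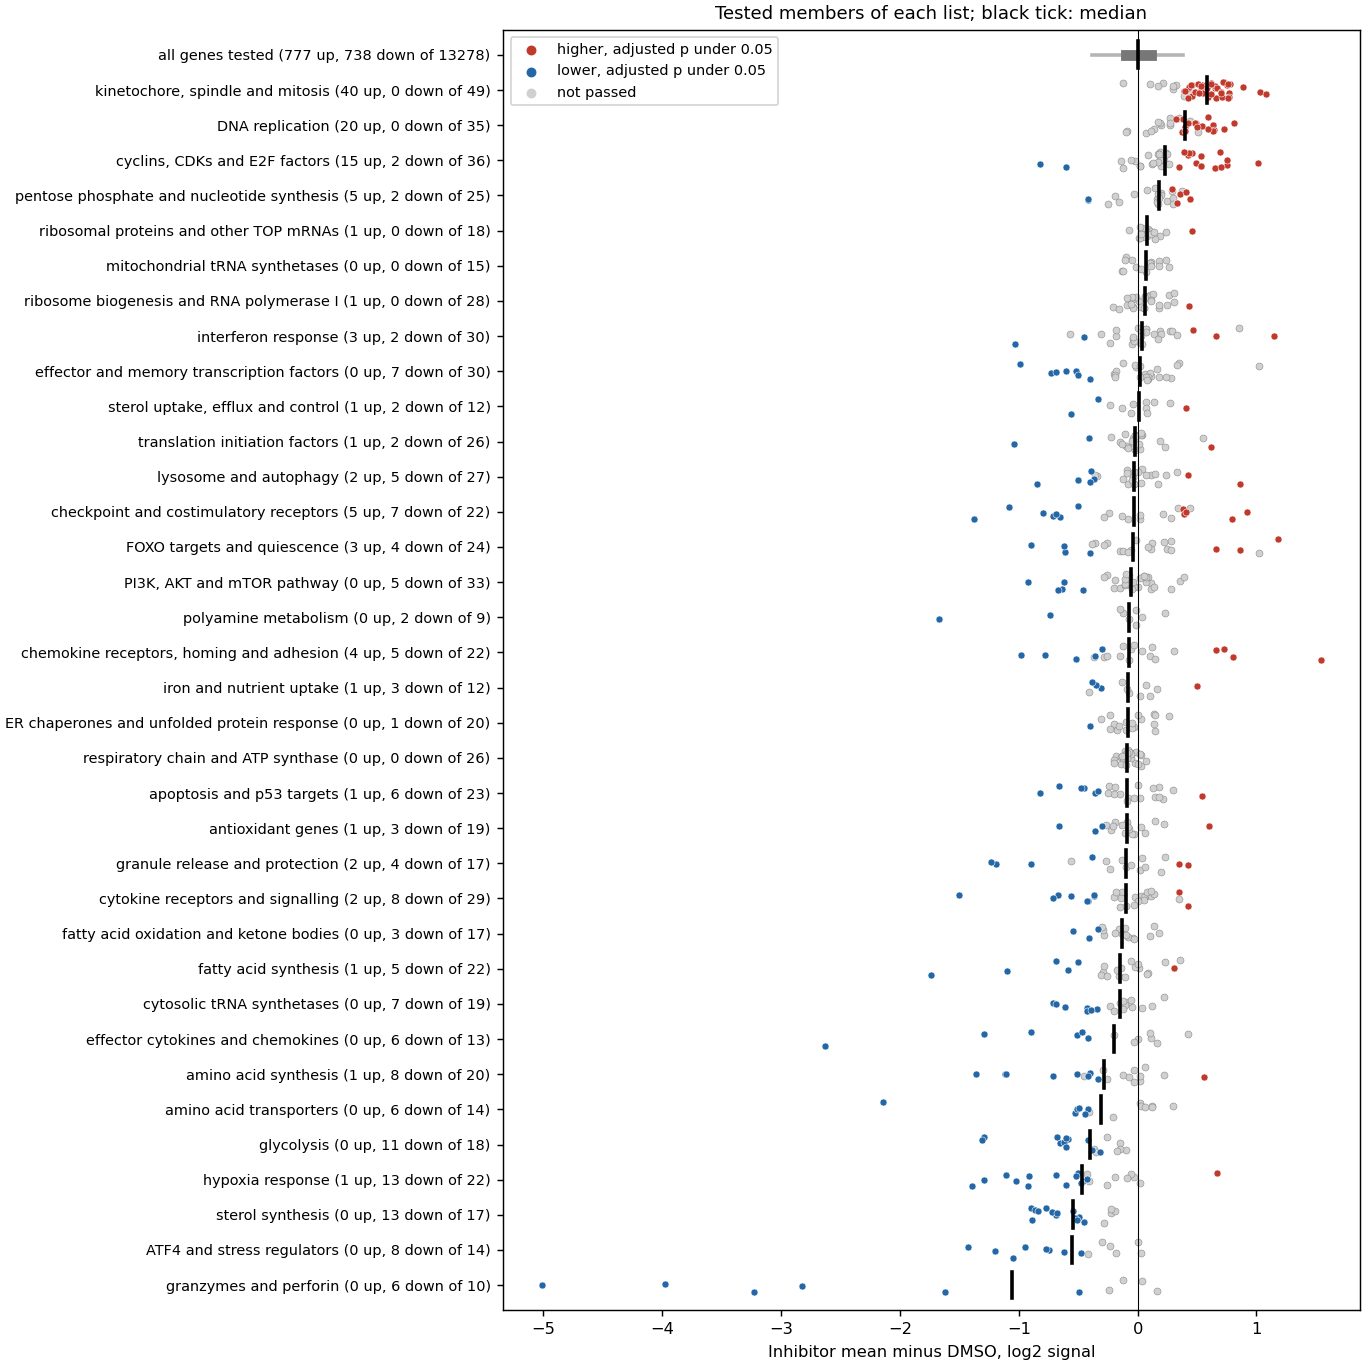
Each point is a tested member of 1 of 35 lists, placed by its pooled inhibitor minus DMSO difference in log2 signal and coloured by its call; the black tick is the list median, and the thin and thick bars of the top row run from the 5th to the 95th and from the 25th to the 75th percentile of all genes tested. With the brightest probe set of each gene the granzyme and perforin median lies at -1.06 and the mitosis median at 0.58, and the respiratory chain list runs from -0.20 to 0.07.

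Genes of the mTOR pathway itself fell in 5 of 33 cases and rose in 0. Sesn3, a sestrin that restrains mTOR complex 1 and is induced by FOXO factors, was at 4.88, 4.43 and 5.03 log2 in DMSO and between 3.46 and 4.39 in treated cultures, a fall of 0.92 (SE 0.07, adjusted p = 0.0033, limma). Pik3r1, the regulatory subunit of PI3K, fell by 0.64 (SE 0.07) and Sgk1, a kinase downstream of complex 2, by 0.67 (SE 0.08). Of 27 lysosome and autophagy genes 2 were higher and 5 lower, against 5.85% and 5.56% of all genes tested. Ctss, the protease cathepsin S, rose by 0.86 (SE 0.08), and Ctsd, cathepsin D, fell by 0.85 (SE 0.10). Of 20 chaperones and unfolded protein response genes only Herpud1, a factor of protein degradation in the endoplasmic reticulum, passed, at -0.40 (SE 0.07). Pik3r1 is lost without spleen 1 or 3, Sgk1 without spleen 1, Ctsd without spleen 3 and Herpud1 with any spleen left out.

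Of 24 quiescence genes and FOXO targets 3 rose and 4 fell, with a median of -0.04 log2. Over all genes tested 5.85% rose and 5.56% fell. Klhl24, a ubiquitin ligase adaptor, rose from 1.23, 1.44 and 1.52 to between 1.65 and 3.30, a difference of 1.18 (SE 0.18, adjusted p = 0.0139, limma); 1 of the 3 DMSO arrays was below background, and the difference was 1.12 with such signals raised to it. Ccng2, the cyclin G2 of resting cells, rose by 0.86 (SE 0.08). Tob1 and Btg1, which restrain proliferation, fell by 0.90 (SE 0.11) and 0.61 (SE 0.07). Among apoptosis and p53 genes 6 of 23 fell and 1 rose. The latter was Bcl2l11, encoding the death protein BIM, at 0.54 (SE 0.10), with another probe set above background that moved the opposite way. Klhl24 is lost without spleen 1 or 2, Tob1 and Btg1 without spleen 1 or 3 and Bcl2l11 with any spleen left out.

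Several of the 10 highest and 10 lowest genes belonged to none of these lists. Igfbp4, a secreted binder of insulin-like growth factors, was at 3.84, 4.78 and 5.03 log2 in DMSO and between 5.52 and 6.40 in treated cultures, a rise of 1.48 (SE 0.15, adjusted p = 0.00572, limma). H2az2, a histone H2A.Z variant, rose by 1.07 (SE 0.10), and Crip1, a LIM protein, by 1.05 (SE 0.09). Kdsr, an enzyme of sphingolipid synthesis, rose by 1.21 (SE 0.14), and Gpnmb, a membrane glycoprotein, by 1.18 (SE 0.15). Tmem40, a transmembrane protein, was at 4.35, 4.85 and 4.63 in DMSO and between 2.32 and 3.01 in treated cultures, a fall of 1.85 (SE 0.07, adjusted p = 0.000833, limma). Niban1, a stress-induced protein, fell by 1.87 (SE 0.17), with 3 treated arrays above background, and Afp by 1.88 (SE 0.16). Acvrl1, a receptor of the TGF-beta superfamily, was above background on 2 of 3 DMSO arrays and on 0 treated arrays, a fall of at least 1.79-fold. The calls of Acvrl1, Gpnmb and Kdsr are lost without spleen 3. Of the 88 genes past 2-fold, 52 were in none of the 35 lists.

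The 2 inhibitors were also set against each other, without the DMSO arrays, to see where their mean hides a difference. In limma 0 of 13278 genes passed (0% called, lowest adjusted p = 0.252), with 1326 at an unadjusted p under 0.05. The count was 48 with an intensity trend and 6 with median centring. The median 95% interval reached 0.21 log2 on either side of the difference, which gives the precision of this comparison. Of the 1515 genes of the pooled comparison 18.3% had an unadjusted p under 0.05, against 9.99% of all genes tested.

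Intervals of the difference were narrow around 0 for some genes described above. For Ifng, KU-0063794 minus rapamycin was -0.02 log2 with a 95% interval of -0.19 to 0.15, for Trib3 it was 0.00 (-0.21 to 0.21), and for Aspm -0.01 (-0.20 to 0.17). For others the interval left out 0, without passing the adjustment. Klhl24 was lower with KU-0063794 by 0.84 (interval -1.02 to -0.66, adjusted p = 0.307, limma), as were Ccr7 by 0.54 (-0.71 to -0.36) and Gbp2 by 0.54 (-0.77 to -0.31). Slc7a3 was higher with KU-0063794 by 0.71 (0.26 to 1.17), and Gzmd lower by 0.76 (-1.28 to -0.24). Doses of the 2 compounds were fixed at 20 nM and 1 uM, so that compound and dose cannot be told apart.

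For single genes the pooled mean lay between unlike values. Ccn3, a matricellular protein, passed the pooled test at 0.68 (adjusted p = 0.0394, limma), yet its difference from DMSO was 1.49 with rapamycin and -0.13 with KU-0063794. Mxd1, a MAX partner that opposes MYC, passed at -0.65 (adjusted p = 0.0127, limma) with -0.16 for rapamycin and -1.15 for KU-0063794. These 2 genes had the largest differences between inhibitors among those called, -1.62 and -0.99, and were picked after their values were seen.

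**Figure D5:**
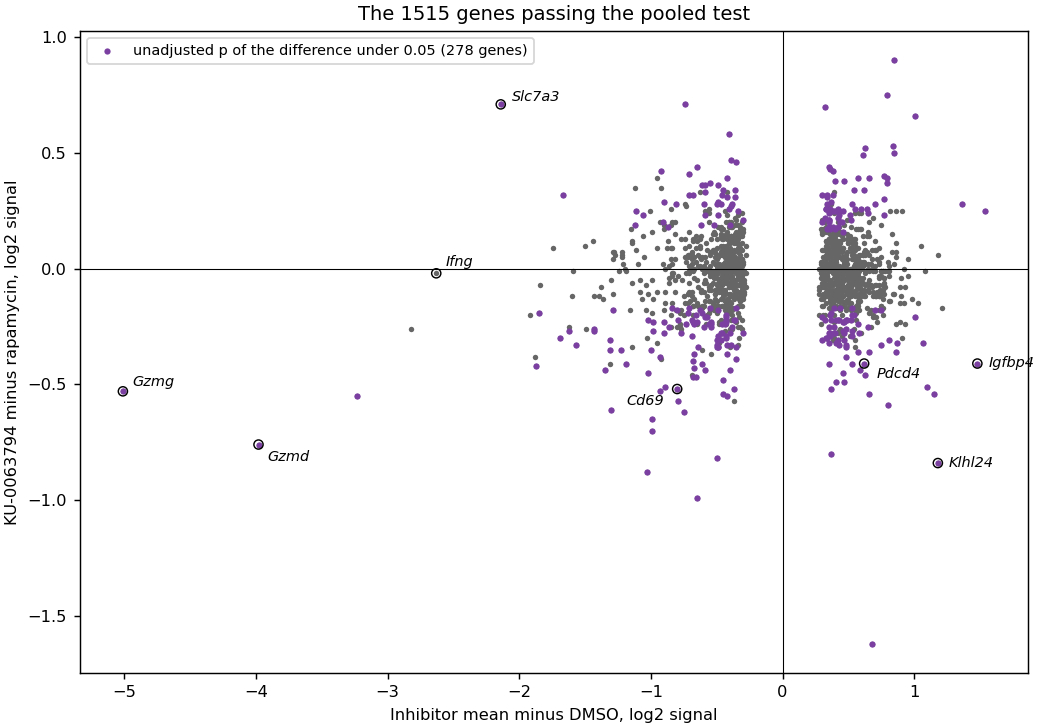
Each point is 1 of the 1515 genes called in the pooled comparison, with the pooled difference from DMSO on the x axis and KU-0063794 minus rapamycin on the y axis, both in log2 signal. Most points keep near 0 on the y axis (median size 0.11), and purple marks the 278 genes with an unadjusted p under 0.05 for the difference, of which 0 passed adjustment.

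Against DMSO alone, rapamycin gave 374 genes higher (2.82%) and 371 lower (2.79%), and KU-0063794 gave 302 higher (2.27%) and 322 lower (2.43%). Both comparisons share the 3 DMSO arrays with each other and with the pooled one. The mean of both inhibitors took some genes past the threshold that neither inhibitor took alone. Rraga, encoding the RagA GTPase that brings mTOR complex 1 to the lysosome, was at 4.80, 4.84 and 4.54 log2 in DMSO and between 4.01 and 4.54 in treated cultures. Its pooled difference was -0.41 (SE 0.07, adjusted p = 0.0169, limma), with -0.37 (adjusted p = 0.085) for rapamycin and -0.45 (adjusted p = 0.0509) for KU-0063794. Traf1, an adaptor of TNF receptors, was at -0.77 (SE 0.13, adjusted p = 0.0168, limma), with -0.63 and -0.91. Mdc1, a mediator of the DNA damage response, was at 0.57 (SE 0.09, adjusted p = 0.0171, limma), with 0.38 and 0.76, and Cep152, a centriole protein, at 0.43 (SE 0.07), with 0.37 and 0.48. All 4 calls are lost without spleen 1 and without spleen 3, and those of Rraga, Mdc1 and Cep152 also without spleen 2.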

How the data were processed

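Total RNA of 9 cultures was measured on Affymetrix mouse arrays, 1 array per culture. The authors deposited log2 signals in a single table; Affymetrix Expression Console 1.3.1 is named in the submitters' processing notes, and the background, summary and normalization methods are not given in the sources used here. Hybridisation controls rose by 1.041 per doubling of concentration, which fits a log2 scale, and the values were used as deposited. Of 45037 probe sets other than controls, 34945 had a single gene symbol; 932 with several symbols and 9160 without an entry were not used. Each gene took its probe set with the highest mean, and 13278 genes with a mean above the 40th percentile of probe sets (0.31 log2) were tested.

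For each spleen the 2 inhibitor arrays were averaged, and limma 3.58.1 in R 4.3.3 (lmFit, eBayes) compared the 3 averages with the 3 DMSO arrays, with the spleen as a block, two-sided, with Benjamini-Hochberg adjustment over all genes tested and a threshold of 0.05. The labels give 1 spleen per biological replicate; that a number marks the same spleen in all 3 groups was inferred from this and from the arrays. Deviations from group means correlated positively for the 9 same-number pairs (r 0.345 to 0.533) and negatively for the 18 others (-0.414 to -0.0791). Deviations within a group cancel out, so the negative values are not separate evidence. Whether a shared number marks a spleen or another shared step was not tested. The procedure was tested on simulated data. In these the change of a gene was the same for both inhibitors and in all spleens. The simulation therefore cannot show how the calls fare where spleens or inhibitors differ. Lists and members were chosen with earlier results of these data known, so they were not tested as sets. Named genes were the 10 highest and 10 lowest called with 1 sign in all 6 differences, up to 3 called members of each list in each direction, a fixed panel, and up to 10 genes passing the pooled test but neither inhibitor alone; 0 genes passed both the pooled test and the test between inhibitors. Promoters came from a RefSeq table on GRCm38.p6. The precision is limited by 3 spleens. Array signals carry no read depth. Other settings were the block, normalization, filter, probe set choice, eBayes options, each spleen or array left out, each inhibitor alone and, added after the data were seen, signals below background raised to it.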

Additional observations from a re-analysis of the deposited data

Results flagged for a closer look

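Of 155 genes examined for a treated array standing apart from the other 5, 4 had one (2.58%). The cutoff flags about 1 in 20 groups of like, independent values. The treated arrays cover 2 inhibitors and 3 spleens, so that share is no measure of chance here. Gzmg was at 1.91 log2 on the rapamycin array of spleen 1 and at 0.40 to 0.83 on the others. Ctsd was at 6.81 on the rapamycin array of spleen 1, against 6.30 to 6.44. Slc11a2, an iron transporter, was at 2.51 on the rapamycin array of spleen 3, against 3.16 to 3.40, and its call is lost without any 1 spleen and without any 1 of 5 of the 6 inhibitor arrays, that one included. Cep152 was at 3.00 on the KU-0063794 array of spleen 1, against 2.41 to 2.56. The causes were not tested.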

How the results depend on the processing

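The pooled comparison gave 1515 genes. A fit of the 9 arrays as separate values gave 928 without the replicate block and 2059 with it. The count was 2409 with an intensity trend and 795 with the median-ranked probe set of each gene. It was 745 with the rapamycin arrays only and 624 with the KU-0063794 arrays only. Leaving out 1 spleen, or 1 inhibitor array with the other inhibitor standing for its spleen, gave 190 to 1279. At 2-fold the count of 88 became 49 with the mean of probe sets and 52 with the median-ranked probe set. For KU-0063794 against rapamycin the count of 0 became 6 with median centring and 48 with the trend. The cause was not tested. Under the median-ranked probe set 8 named genes changed sign without passing: Ak4 (0.07), Ppat (-0.04), Prf1 (0.09), Stat3 (0.02), Itgav (0.05), Rbl1 (-0.01), Cenpk (-0.09) and Sod2 (0.12). These probe sets were above background on average for Ppat and Sod2 and below it for the others. Of the 145 named genes called, 45 were lost in the 9-array fit without the replicate block and 4 in that fit with it. Without spleen 3, 89 were lost. Quantile normalization, median centring, the mean of probe sets, no filter, a filter at background, robust eBayes and the 9-array fits with a fixed or random spleen block kept the pooled count within 1.5 times, at 1343 to 2059. Raising signals below background to it, with the filter at background, gave 1825 genes and 79 at 2-fold, and all 138 named calls still tested there were kept. Acvrl1, Acss2 and Mx1, dim on all treated arrays, are given as lower bounds. Among the falls given in deposited signal, those of Gzmg, Gzme, Niban1, Gpt2, Il1r2, Slc7a3, Atf5, Ak4 and Hmox1 include treated arrays below background.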

Other observations

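Of 30 tested interferon-induced genes 3 were higher and 2 lower in the pooled comparison. Over all genes tested the shares were 5.85% and 5.56%. Gbp2, a guanylate-binding protein induced by interferon gamma, was at 5.76, 5.84 and 6.37 log2 in DMSO and between 6.76 and 7.61 in treated cultures, a rise of 1.15 (SE 0.12, adjusted p = 0.00572, limma), in the same cultures in which Ifng fell by 2.63. Ifi47, an interferon-induced GTPase, rose by 0.66 (SE 0.12) and Gbp3 by 0.47 (SE 0.09). Mx1, an antiviral GTPase, was above background on all DMSO arrays and on 0 treated arrays, a fall of at least 1.31-fold. For this list the pooled value covers unequal inhibitors: the median difference from DMSO was 0.21 with rapamycin and -0.06 with KU-0063794, and 16 of the 30 members had an unadjusted p under 0.05 for the difference, against 9.99% of all genes tested, though 0 passed adjustment in limma (1326 of all genes at an unadjusted p under 0.05). The calls of Ifi47, Gbp3 and Mx1 are lost with any spleen left out.

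Of 12 tested genes of iron and nutrient uptake 1 rose and 3 fell, and of 19 antioxidant genes 1 rose and 3 fell. Over all genes tested 5.85% rose and 5.56% fell. Fth1, the heavy chain of ferritin, was at 10.51, 10.66 and 10.66 log2 in DMSO and between 10.13 and 10.33 in treated cultures, a fall of 0.35 (SE 0.07, adjusted p = 0.0239, limma). Tfrc, the transferrin receptor, did not pass at 0.10 (SE 0.08). Slc29a1, a nucleoside transporter, rose by 0.50 (SE 0.07). Prdx4, a peroxiredoxin of the endoplasmic reticulum, rose by 0.60 (SE 0.08), and Hmox1, heme oxygenase 1, fell by 0.66 (SE 0.08). With spleen 1 or spleen 3 left out, 0 members of either list passed, and without spleen 2 the call of Fth1 is lost too.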
